A study of Mus musculus with 4 samples.

Results

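The genes of coagulation and fibrinolysis were examined in mouse liver: 33 genes, taken by symbol from the 13903 genes of the deposited expression table, all of which were found. They cover the clotting factors, fibrinogen, the contact factors, the natural anticoagulants, plasminogen with its activators and inhibitors, the thrombin receptor and von Willebrand factor. The 4 libraries were liver RNA of OGT-Floxed animals with a C57BL/6J background. All 4 groups were fed the CDE diet (choline-deficient and ethionine-supplemented, which injures hepatocytes and is used to provoke a ductular response). The groups labelled OGT-KO received AAV8-TBG-CRE, a viral vector whose TBG promoter drives Cre recombinase in hepatocytes, so that other liver cells keep the gene, and the groups labelled control received AAV8-TBG-eGFP. One pair of groups was taken with no recovery and the other after 7 days of recovery from the diet. Each group was 1 library of RNA pooled from 3 mice, so no difference below has a replicate check, and age and sex were not given in the sources used here. OGT is the enzyme that attaches O-GlcNAc to nuclear and cytoplasmic proteins.

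Blood clots when a cascade of proteases turns prothrombin into thrombin, which cuts fibrinogen into fibrin. Plasmin, made from plasminogen, dissolves the fibrin again. Hepatocytes secrete most of these proteins into plasma, which makes their synthesis a classical measure of liver function, whereas the receptors and activators that act on the vessel wall come mainly from endothelium, leukocytes and other non-parenchymal cells. By that general knowledge, 22 of the 33 genes were listed as made mainly by hepatocytes and 11 as made mainly by other cells.

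Values are in CPM, the reads of a gene scaled to a library total of 1000000, and each library held between 19972699 and 22866431 reads, so that 3 reads corresponded to 0.131 to 0.150 CPM. Intervals given below are exact 95% intervals from the read counts and cover counting error only. A gene entered the comparisons if its 4 values averaged 10 CPM or more, which 8963 genes did and 26 of the 33. The members under this filter were F3, F8, F13a1, Procr, Tfpi, Plau and Plaur. A gene was called higher or lower when log2(CPM + 1) differed by at least 2-fold. Ogt itself read 55.3 CPM in the OGT-KO-labelled library and 64.7 CPM in the control-labelled library with no recovery, but 77.7 against 55.7 CPM after 7 days, so at 7 days it went against the label. After median-ratio scaling the log2 differences for Ogt were -0.93 and -0.20. The gene total does not separate the floxed exons from the rest of the transcript, and directions below are therefore given between labels. The median gene was higher in the OGT-KO-labelled libraries by 0.51 on the log2 scale with no recovery and by 0.48 after 7 days. The 9 hepatocyte markers compared had median log2 differences of -0.53 and -0.26, and 2 of the 9 were at least 2-fold lower at each time. The shares of all compared genes that were lower were 5.69% and 4.27%. Under median-ratio scaling 5 and 4 of the 9 were lower, against 15.4% and 11.8% of all genes. Albumin (Alb) stood at 41362 and 51507 CPM in the OGT-KO-labelled libraries against 47845 and 54434 CPM in those labelled control. Markers of macrophages (8 of 8 compared), cholangiocytes (6 of 6) and stellate cells (9 of 10) were at least 2-fold higher at both times in the OGT-KO-labelled libraries, against 19.2% of all compared genes. Of these, 1 macrophage, 4 cholangiocyte and 2 stellate markers were under 10 CPM in both control-labelled libraries and passed the filter only through the others, and no listed marker was at 0 reads in any library. In bulk liver RNA, fewer cells of a type and less RNA per cell cannot be told apart.

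The calls are given beside the cells listed as making each gene. The genes were chosen with earlier results of these data known, so a division between those lists was not tested. With no recovery, 9 of the 26 compared genes (34.6%) had at least a 2-fold lower value in the OGT-KO-labelled library, against 5.69% of all compared genes, and 4 (15.4%) were higher, against 24.4%. After 7 days 12 of 26 (46.2%) were lower, against 4.27% of all genes, and 4 were higher, against 22.9%. Every gene called lower was hepatocyte-made, and the 4 called higher (Plat, Thbd, F2r and Vwf) were all among the genes made by other cells. At both times 8 genes were lower, against 3.74% of all genes, and 4 were higher, against 19.2%. The 8 were F7, F9, F11, Klkb1, Plg, Proc, Proz and Serpinf2. Plat and Thbd passed the filter only through the OGT-KO-labelled libraries, where they were high, so a difference was built into their selection. Without the filter, over all 33 genes, 10 were higher and 9 lower with no recovery, against 33.1% and 4.35% of all 13903 genes, and 9 were higher and 12 lower after 7 days, against 32.3% and 3.32%.

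**Figure D1:**
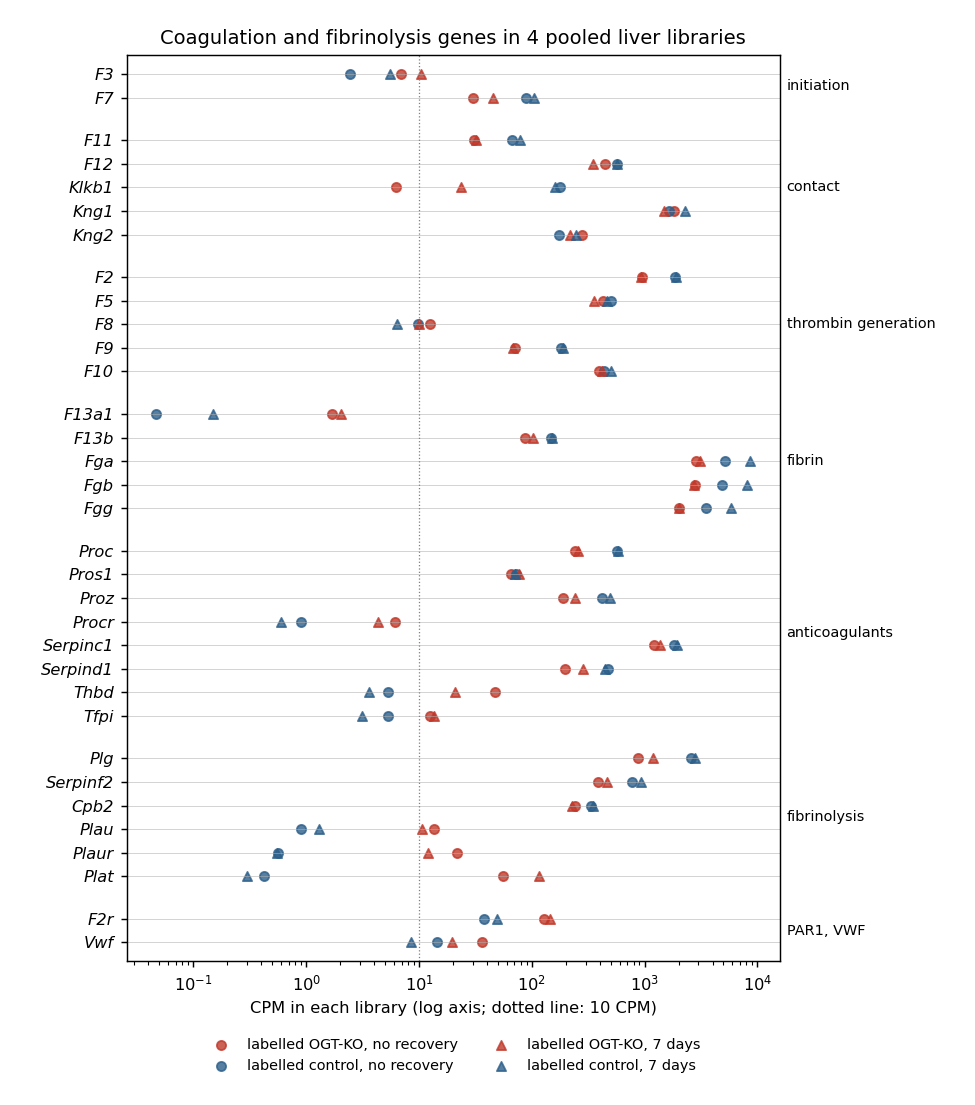
CPM of the 33 genes in each of the 4 pooled libraries on a log axis, with the 10 CPM filter as a dotted line. The genes made by other cells lie to the right in the OGT-KO-labelled libraries, and most hepatocyte-made genes lie to the left.

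**Figure D2:**
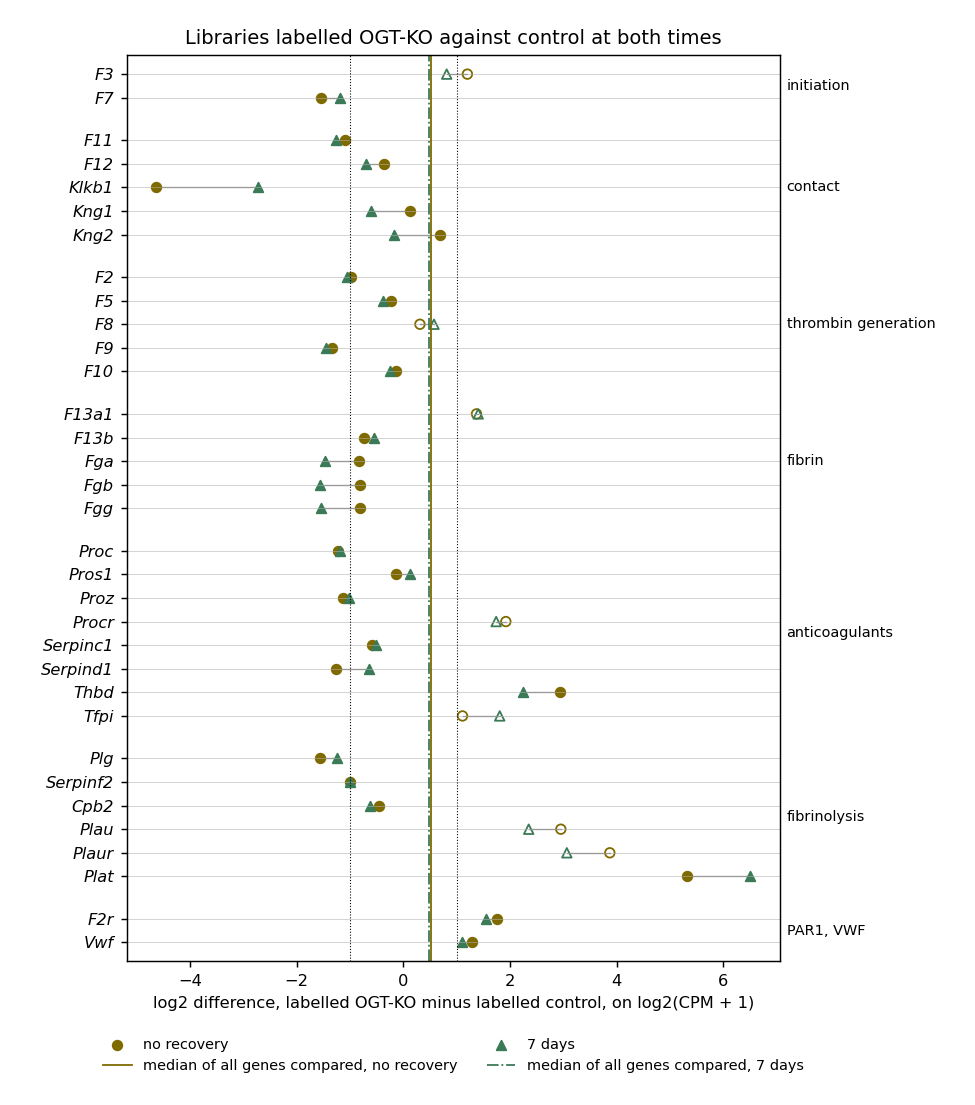
Log2 difference between the OGT-KO-labelled libraries and control for each gene, with no recovery and after 7 days. Klkb1 lies farthest to the left at both times (-4.63 and -2.72) and Plat farthest to the right (5.31 and 6.50).

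In sum, the 22 hepatocyte-made genes took 2.64% of all reads in the control-labelled library with no recovery and 1.56% in the OGT-KO-labelled library. After 7 days the shares were 3.69% and 1.60%. The median log2 difference of the 22 was -0.82 with no recovery and -1.02 after 7 days, beside 0.51 and 0.48 for all genes, and 21 and then all 22 lay below the all-gene median. Kng2 was the 1 gene above it with no recovery.

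Fibrinogen, the precursor of the clot, is built of 3 chains encoded by Fga, Fgb and Fgg, neighbouring genes on chromosome 3. Fga (ENSMUSG00000028001) stood at 2863 and 3111 CPM in the OGT-KO-labelled libraries (no recovery, then 7 days; pairs of values keep this order below) and at 5117 and 8649.5 CPM in those labelled control. Fgb (ENSMUSG00000033831) stood at 2773 and 2734 CPM against 4858 and 8066 CPM. Fgg (ENSMUSG00000033860) stood at 2009 and 2028 CPM against 3523 and 5888 CPM. All 3 chains were thus lowest in the OGT-KO-labelled libraries and highest in the control-labelled library after 7 days. With no recovery the chains were 1.79-fold (95% interval 1.77 to 1.80), 1.75-fold and 1.75-fold lower in the OGT-KO-labelled library, which on the deposited scale did not reach the 2-fold call. After 7 days they were 2.78-fold (2.76 to 2.81), 2.95-fold (2.92 to 2.98) and 2.90-fold (2.87 to 2.94) lower, and all 3 were called. Under median-ratio scaling all 3 were past 2-fold at both times. Their log2 differences there were -1.56, -1.53 and -1.53 with no recovery and -2.16, -2.25 and -2.22 after 7 days. Upper-quartile scaling also put all 3 past 2-fold with no recovery (-1.32, -1.29 and -1.29).

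The chains kept their proportions. The ratio of Fgg reads to Fgb reads was 0.724 in the OGT-KO-labelled library and 0.725 in that labelled control with no recovery, and 0.742 against 0.730 after 7 days. The ratio of Fga to Fgb reads lay between 1.03 and 1.14 in the 4 libraries. Among all compared genes, the 5 whose pattern over the 4 libraries lay nearest to that of Fga (Euclidean distance between centred log2 values) were Fgg (0.078), Fgb (0.105), Gpcpd1 (0.226), Gnat1 (0.244) and Slc25a47 (0.294).

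Because the 3 chains differed in step across the libraries, the 250 bases before their transcription starts are shown (RefSeq, GRCm38.p6, 5′ to 3′ on the strand of the gene). Capitals mark exact matches, on either strand, to 4 letter strings written after factors known to act on liver promoters: CAAAGTCCA for HNF4, GTTAATNAT for HNF1, TTGCNNAAT for C/EBP and CTGGGAA for the interleukin-6 response element. Fga lies on the plus strand at chr3:83025903-83026152, Fgb on the minus strand at chr3:83049864-83050113 and Fgg on the plus strand at chr3:83007474-83007723.
Fga: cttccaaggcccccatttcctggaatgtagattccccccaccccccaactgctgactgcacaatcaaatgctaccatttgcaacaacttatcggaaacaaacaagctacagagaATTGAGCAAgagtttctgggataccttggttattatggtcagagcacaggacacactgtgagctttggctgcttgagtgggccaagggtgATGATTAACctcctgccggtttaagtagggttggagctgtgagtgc
Fgb: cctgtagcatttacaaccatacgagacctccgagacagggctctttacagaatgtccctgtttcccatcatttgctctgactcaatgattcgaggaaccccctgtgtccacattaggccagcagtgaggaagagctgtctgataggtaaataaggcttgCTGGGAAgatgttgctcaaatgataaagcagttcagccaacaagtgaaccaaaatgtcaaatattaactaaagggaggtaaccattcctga
Fgg: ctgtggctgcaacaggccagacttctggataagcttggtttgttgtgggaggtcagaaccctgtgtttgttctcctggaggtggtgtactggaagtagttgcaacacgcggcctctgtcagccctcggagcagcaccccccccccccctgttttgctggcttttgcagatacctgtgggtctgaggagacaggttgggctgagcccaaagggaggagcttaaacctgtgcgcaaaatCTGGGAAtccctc

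The Fga window held a C/EBP string that began 136 bases before the start and an HNF1 string 46 bases before it, both on the opposite strand, while the interleukin-6 string began 91 bases before the start in Fgb and 13 bases before it in Fgg. No 2 of these matches overlapped. Windows running from 250 bases before to 50 bases after the start were found for 26 of the 33 genes (28 windows). The interleukin-6 string occurred in 5 of the 28 (17.9%; F9, Fgb, Fgg, Kng2 and Tfpi) and in 11.1% of all 32851 windows. The HNF1 string occurred in 2 (7.14%; F13b and Fga) against 0.801%, the C/EBP string in 2 (F9 and Fga) against 2.40%, and the HNF4 string in 0 against 0.475%. A match describes letters in a window and shows neither binding nor use of a site.

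Factor XIII crosslinks finished fibrin. F13b, its hepatocyte-made carrier subunit, stood at 87.6 and 102 CPM in the OGT-KO-labelled libraries against 147 and 150.3 CPM in those labelled control, 1.67-fold and 1.47-fold lower. F13a1, the catalytic subunit, which macrophages and platelets carry, had 39 and 46 reads against 1 and 3 reads. Its fold difference, 36.3 with no recovery, had an interval from 6.14 to 1468, since it rests on 1 read in the control-labelled library. The summed CPM of the 10 macrophage markers was 1216 and 920 in the OGT-KO-labelled libraries against 290 and 107 in those labelled control, and its part in the F13a1 values was not tested.

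The contact factors held the gene with the largest difference on the hepatocyte side. Klkb1 (ENSMUSG00000109764) encodes plasma prekallikrein, the protease that activates factor XII and releases bradykinin from kininogen. It stood at 6.25 CPM in the OGT-KO-labelled library and 179 CPM in that labelled control with no recovery, and at 23.6 against 161 CPM after 7 days. The OGT-KO-labelled libraries were both far below those labelled control, 28.6-fold (24.2 to 34.0) and 6.84-fold (6.24 to 7.51). F11, the closest relative of Klkb1 among the clotting proteases, read 30.4 and 31.9 CPM against 66.5 and 78.7 CPM, 2.18-fold (1.99 to 2.39) and 2.46-fold (2.25 to 2.69) lower. Relative to F11 reads in the same library, Klkb1 reads in the OGT-KO-labelled library were 0.0764 of those in the control-labelled library with no recovery, and 0.360 after 7 days, a measure that does not depend on how the libraries are scaled.

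F12, which starts the contact pathway, was nearer between the labels, with 446 and 346 CPM against 574 and 567 CPM (1.29-fold and 1.64-fold lower). The kininogens, cofactors of the contact factors and the source of bradykinin, behaved differently from the proteases. Kng1 stood at 1817 CPM against 1662 CPM with no recovery, 1.09-fold (1.08 to 1.11) higher in the OGT-KO-labelled library, and at 1491 against 2279 CPM after 7 days, 1.53-fold (1.51 to 1.55) lower. Kng2, a second mouse kininogen gene of closely related sequence, stood at 277 against 172 CPM and then at 219 against 246 CPM. Kng2 was 1.61-fold (1.54 to 1.67) higher with no recovery and 1.12-fold (1.08 to 1.17) lower after 7 days. The higher values with no recovery turned to log2 differences of -0.59 (Kng1) and -0.04 (Kng2) under median-ratio scaling. Under upper-quartile scaling Kng1 turned as well (-0.35), while Kng2 stayed higher (0.20). How reads shared by the copies were assigned was not given in the sources used here.

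In the tissue factor pathway, the surface receptor and its plasma ligand went in opposite directions. F7, the plasma protease that tissue factor captures, read 30.1 and 45.2 CPM in the OGT-KO-labelled libraries and 89.6 and 104 CPM in those labelled control, 2.97-fold (2.72 to 3.25) and 2.31-fold (2.14 to 2.49) lower. F3, tissue factor itself, was a low-count gene, with 158 and 237 reads against 52 and 111 reads. It was 2.82-fold (2.05 to 3.94) and 1.89-fold (1.502 to 2.39) higher in the OGT-KO-labelled libraries and was under the 10 CPM filter. The log2 differences of F3, 1.20 and 0.81, fell to 0.62 and 0.21 under median-ratio scaling.

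Among the factors that assemble on membranes to make thrombin, the size of the difference varied from gene to gene. F9, the hemophilia B gene, stood at 70.8 and 68.1 CPM against 180.4 and 187 CPM, 2.55-fold (2.40 to 2.70) and 2.75-fold (2.59 to 2.92) lower in the OGT-KO-labelled libraries. F2, prothrombin, stood at 943 and 920.4 CPM against 1872 and 1912 CPM. It was 1.98-fold (1.95 to 2.02) and 2.08-fold (2.04 to 2.11) lower, so that its 2 values sat on either side of the threshold on the deposited scale. After median-ratio scaling the log2 differences of F2 were -1.71 and -1.74, both past 2-fold. F10 (factor X) stood at 398 and 423 CPM against 437 and 506 CPM, only 1.10-fold and 1.20-fold lower. F5, the cofactor of factor X, was 1.17-fold and 1.30-fold lower. F8, the hemophilia A gene, is made by liver endothelium rather than hepatocytes and read 12.4 and 10.01 CPM against 9.83 and 6.41 CPM. F8 was thus 1.26-fold (1.05 to 1.52) and 1.56-fold (1.25 to 1.96) higher and was under the filter. Its direction turned at both times under median-ratio scaling, and only with no recovery under upper-quartile scaling (-0.13, then 0.14).

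F7, F10 and Proz are neighbouring genes of one family, and they differed among themselves. Relative to F10 reads in the same library, F7 reads in the OGT-KO-labelled libraries were 0.370 and 0.518 of those in the control-labelled libraries. The same measure for Proz was 0.502 and 0.586. Vitamin K carboxylation is needed by 7 of the 33 products (F2, F7, F9, F10, Proc, Pros1 and Proz). By the 2-fold rule 4 of these genes were lower with no recovery, against 5.69% of all genes, and 5 after 7 days, against 4.27%, with F10 and Pros1 called at neither time. The edgeR fit described below called all 7 lower. A further list held 5 compared genes: Ggcx, Vkorc1 and Vkorc1l1 of the vitamin K cycle, and Lman1 and Mcfd2, which export factors V and VIII. Of the 5, 0 passed the 2-fold rule on log2(CPM + 1) at either time, while 1 was lower at both times after median-ratio scaling. The edgeR fit called Lman1, Vkorc1l1 and Vkorc1 lower, against 24.1% of all genes. Ggcx, the carboxylase, stood at 71.2 and 86.1 CPM in the OGT-KO-labelled libraries against 71.1 and 71.2 CPM. Vkorc1, which recycles vitamin K, read 9.71 and 9.62 CPM against 19.8 and 14.9 CPM, a CPM ratio of 2.04-fold with no recovery that the pseudocount held under the call.

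The anticoagulants made by hepatocytes ranged in their difference. Proc, protein C, stood at 241 and 256 CPM against 564 and 584 CPM, 2.34-fold (2.27 to 2.42) and 2.28-fold (2.21 to 2.35) lower. Proz, a cofactor for inhibition of factor Xa, stood at 189.8 and 242 CPM against 415 and 495 CPM, 2.19-fold and 2.04-fold lower. Serpind1, heparin cofactor II, which inhibits thrombin, stood at 195 and 283 CPM against 473 and 445 CPM. It was 2.42-fold (2.34 to 2.51) lower with no recovery and 1.57-fold (1.52 to 1.62) lower after 7 days. Serpinc1, antithrombin, was less different, at 1201 and 1369 CPM against 1814 and 1951 CPM (1.51-fold and 1.43-fold lower). Relative to prothrombin reads in the same library, Serpinc1 reads were 1.31 and 1.46 times those in the control-labelled libraries. Pros1, the cofactor of protein C and a gene that endothelium also expresses, read 65.6 and 77.5 CPM against 72.1 and 70.8 CPM and was 1.10-fold lower and then 1.09-fold higher. That held on the deposited scale only, since its log2 differences were -0.84 and -0.55 after median-ratio scaling and edgeR called it lower.

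The receptors that switch protein C on were the other way round. Thbd, thrombomodulin, which turns thrombin toward activation of protein C, stood at 46.8 and 20.8 CPM in the OGT-KO-labelled libraries and at 5.27 and 3.60 CPM in those labelled control. It was 8.88-fold (7.30 to 10.9) and 5.78-fold (4.50 to 7.51) higher. Procr, the endothelial protein C receptor, had 141 and 98 reads against 19 and 12 reads, 6.90-fold (4.26 to 11.8) and 7.23-fold (3.96 to 14.5) higher, and was under the filter. Tfpi, the inhibitor of the tissue factor complex, read 12.5 and 13.5 CPM against 5.27 and 3.15 CPM, 2.37-fold (1.90 to 2.98) and 4.28-fold (3.26 to 5.71) higher, and was also under the filter. The ratio of Thbd to Proc reads was thereby 20.8 times and 13.2 times as large in the OGT-KO-labelled libraries.

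Fibrinolysis showed the widest separation of a substrate from its activators. Plg (ENSMUSG00000059481), plasminogen, stood at 879 and 1192 CPM in the OGT-KO-labelled libraries against 2587 and 2814 CPM in those labelled control. Both OGT-KO-labelled libraries were lower, by 2.94-fold (2.89 to 2.99) and 2.36-fold (2.33 to 2.40). Plat (ENSMUSG00000031538), the tissue plasminogen activator, stood at 55.5 and 117 CPM against 0.423 and 0.300 CPM, which are 1268 and 2640 reads against 9 and 6 reads. Its fold differences, 131 (68.8 to 287) and 389 (179 to 1062), were the largest of the 33 genes, and the few reads in the control-labelled libraries leave their size uncertain.

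Plau, the urokinase-type activator, had 312 and 242 reads against 19 and 26 reads, 15.3-fold (9.61 to 25.7) and 8.24-fold (5.49 to 12.9) higher in the OGT-KO-labelled libraries. Plaur, the receptor that holds urokinase at the cell surface, had 500 and 270 reads against 12 and 11 reads, 38.7-fold (22.0 to 75.5) and 21.7-fold (11.9 to 44.0) higher. Both genes were under the 10 CPM filter, with means set almost wholly by the OGT-KO-labelled libraries. The brakes on plasmin lay on the lower side with plasminogen. Serpinf2, the main plasmin inhibitor, stood at 387 and 463 CPM against 776 and 930.3 CPM, 2.01-fold (1.96 to 2.06) lower at both times. On the deposited scale that was only just past the threshold, while after median-ratio scaling its log2 differences were -1.72 and -1.69. Cpb2, a carboxypeptidase that protects fibrin from plasmin, stood at 244 and 227 CPM against 334 and 350.0 CPM, 1.37-fold and 1.54-fold lower.

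The thrombin receptor and von Willebrand factor complete the set. F2r, the protease-activated receptor through which thrombin signals to cells, stood at 129 and 146 CPM against 37.9 and 49.5 CPM, 3.42-fold (3.16 to 3.70) and 2.95-fold (2.74 to 3.17) higher in the OGT-KO-labelled libraries. Vwf, the platelet adhesion protein made by endothelium, stood at 36.5 and 19.5 CPM against 14.4 and 8.56 CPM, 2.53-fold (2.21 to 2.89) and 2.28-fold (1.91 to 2.74) higher. Under median-ratio scaling Vwf had log2 differences of 0.59 and 0.47 and was no longer called, and F2r had 1.04 and 0.86 and lost its call after 7 days. Under upper-quartile scaling Vwf (0.82 and 0.65) was not called either, while F2r (1.27 and 1.06) was called at both times. The genes nearest to the pattern of Vwf over the 4 libraries were Stbd1 (0.119), Cebpd (0.168), Adam23 (0.171), Mbd1 (0.210) and Mknk2 (0.237).

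All 11 genes made by other cells had more CPM in the OGT-KO-labelled libraries at both times, and their summed level was 343 and 366 CPM against 77.9 and 79.7 CPM. The median of all compared genes was itself higher, by 0.51 and 0.48 on the log2 scale. With no recovery F8 (0.31) lay below that median, and only 4 of the 11 passed the filter. The 12 endothelial markers had a median log2 difference of 0.73 and 0.77, with 3 called higher at each time (against 24.4% and 22.9% of all genes), and their summed level was 646 and 532 CPM against 385 and 267 CPM. Under median-ratio scaling those medians were 0.04 and 0.13, with 1 marker called at each time. The 10 stellate markers summed to 3228 and 3764 CPM against 374 and 248 CPM, and the 7 cholangiocyte markers to 1173 and 1493 CPM against 54.3 and 71.0 CPM. The part of these cell types in the values of Plat, Plau, Plaur, Thbd, Procr, Tfpi, F2r, Vwf, F3, F8 and F13a1 was not tested.

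Set against the summed reads of the 12 endothelial markers in the same library, Vwf, F2r, Thbd, Plat and F8 were unequal. Vwf was 1.51 times and 1.15 times as high in the OGT-KO-labelled libraries as in those labelled control. The same measure was 2.04 and 1.48 for F2r, 5.30 and 2.90 for Thbd, 78.2 and 196 for Plat, and 0.754 and 0.786 for F8. The few Plat reads in the control-labelled libraries leave the size of its ratios uncertain. No ratio to the stellate or cholangiocyte markers was taken, so these values do not assign the genes to endothelium. The choice of marker mattered: against Pecam1 alone, an endothelial adhesion gene, Vwf was at 1.001 and 1.21 and F8 at 0.501 and 0.826. Set against the summed macrophage markers, Plaur was 9.24 and 2.52 times as high and Plau 3.64 and 0.957 times. Hepatocyte-made genes were likewise unequal against the summed hepatocyte markers. Plg was at 0.439 and 0.524 of the value in the control-labelled libraries, F2 at 0.651 and 0.595, and Fgb at 0.738 and 0.419. Kng1 was at 1.41 and 0.809, and F10 at 1.18 and 1.03. Against albumin alone F10 was at 1.05 and 0.883, so its direction after 7 days turned with the marker.

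The effect of recovery was read within each label. In the control-labelled libraries, 0 of the 26 genes differed 2-fold between no recovery and 7 days, against 0.245% of all genes higher and 0.960% lower. On log2(CPM + 1) the largest differences among the 26 were those of the fibrinogen chains, with 1.69-fold (1.68 to 1.70) more Fga, 1.66-fold (1.65 to 1.67) more Fgb and 1.67-fold (1.66 to 1.69) more Fgg after 7 days. Kng1 was 1.37-fold (1.35 to 1.39) and Kng2 1.43-fold (1.37 to 1.49) higher. Vwf was 1.69-fold (1.39 to 2.05) lower and Thbd 1.46-fold (1.08 to 1.99) lower in the same comparison. F3, under the filter, was 2.27-fold (1.62 to 3.22) higher.

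In the OGT-KO-labelled libraries, 2 of the 26 genes were at least 2-fold higher after 7 days, against 1.04% of all genes, and 1 was lower, against 0.435%. Klkb1 was 3.77-fold (3.13 to 4.57) higher, yet at 23.6 CPM remained below both control-labelled libraries. Plat was 2.11-fold (1.97 to 2.26) higher. Thbd was 2.25-fold (2.01 to 2.51) lower, and Vwf and Plaur were 1.87-fold (1.66 to 2.10) and 1.83-fold (1.57 to 2.13) lower. The fibrinogen chains were close to level, with 1.09-fold more Fga, 1.01-fold less Fgb and 1.01-fold more Fgg. Plg was 1.36-fold (1.33 to 1.38), Serpind1 1.45-fold (1.40 to 1.51) and F7 1.499-fold (1.36 to 1.65) higher, while Kng1 was 1.22-fold (1.20 to 1.24) and Kng2 1.27-fold (1.22 to 1.31) lower.

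**Figure D3:**
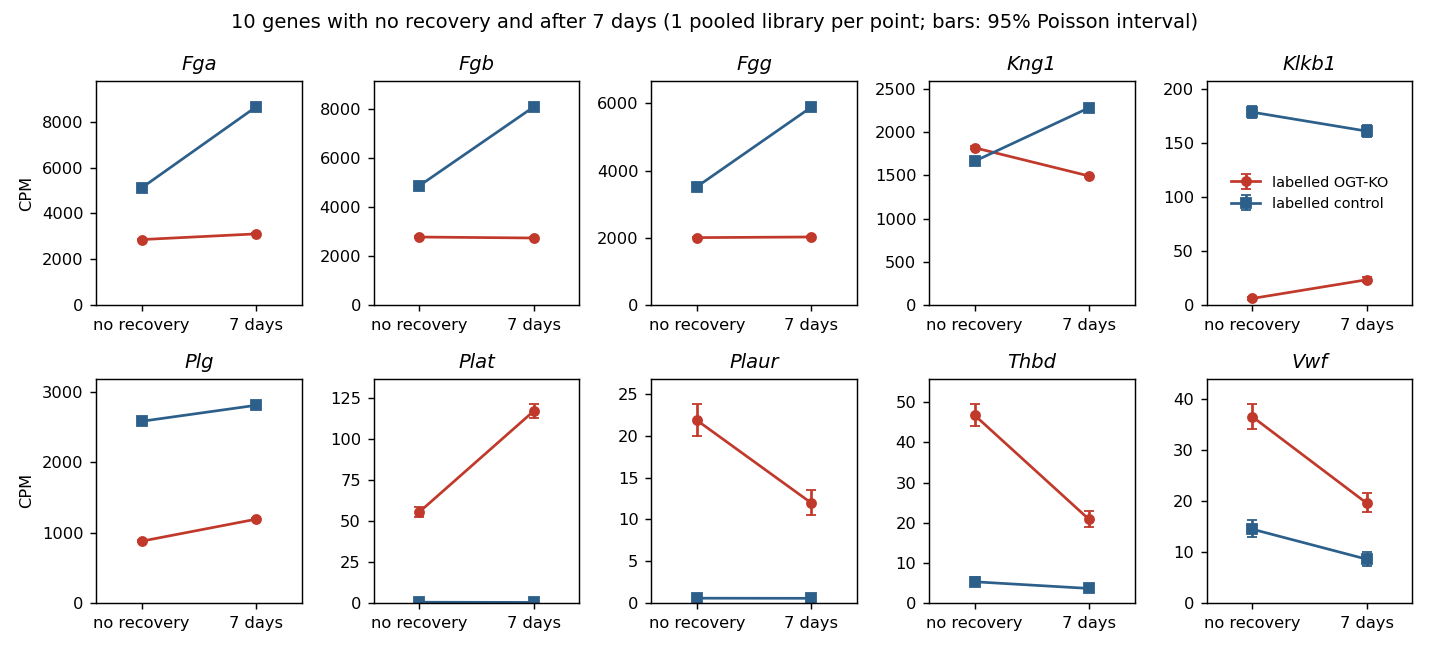
CPM of 10 genes with no recovery and after 7 days in the OGT-KO-labelled libraries and control, with 95% Poisson intervals of the read counts as bars and 1 pooled library per point. The fibrinogen chains are higher after 7 days in the control-labelled library and nearly level in that labelled OGT-KO, where Klkb1 (6.25 to 23.6 CPM) and Plat (55.5 to 117 CPM) are higher after 7 days.

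How the libraries were scaled set how many genes were called. The deposited CPM divides by total reads, and 81.1% and 84.3% of all genes called between the labels were higher in the OGT-KO-labelled libraries. Median-ratio scaling, with its factor taken over all genes that had reads in every library, brought these shares to 40.4% and 49.6%. It left the compared genes at median log2 differences of -0.19 and -0.18, slightly toward the lower side. Upper-quartile scaling left them at 0.04 and 0.01, with shares of 55.2% and 62.1%. On the median-ratio scale 17 and 19 of the 26 genes were lower, against 15.4% and 11.8% of all genes, and 3 and 2 were higher, against 10.4% and 11.6%. At both times 17 were lower and 2 higher, against 10.4% and 9.35%. Of the 26, 24 with no recovery and 25 after 7 days kept the sign of their difference, the exceptions being Kng1 and Kng2 at the first time and Pros1 at the second. Klkb1 (-5.29 and -3.39), Plat (4.82 and 6.10) and Thbd (2.27 and 1.65) kept their calls. A model of label and recovery on the recovered reads (edgeR quasi-likelihood test, Benjamini-Hochberg adjusted p under 0.05), which had 1 residual degree of freedom and took the disagreement between the times as its error, called 21 of the 26 lower and 4 higher, against 24.1% and 25.0% of all genes. With RLE scaling it called 20 lower and 4 higher, against 23.7% and 24.5%. Of the 9 hepatocyte markers, the same fit called 7 lower under either scaling, so a lower call was not particular to the 26 genes.

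**Figure D4:**
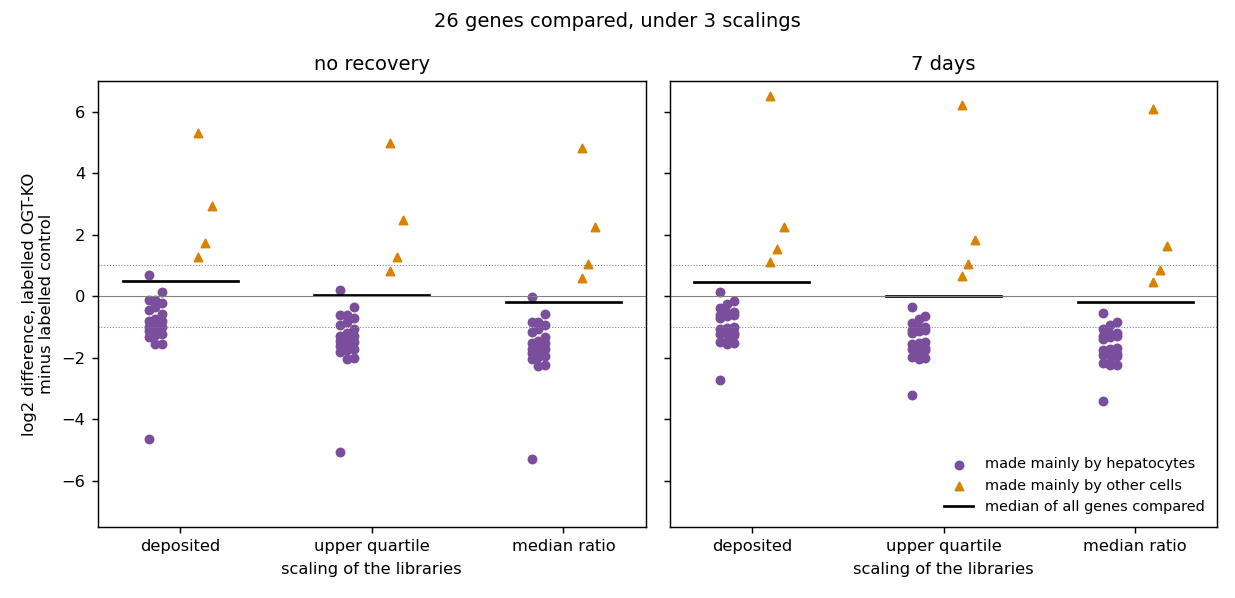
Log2 difference between the OGT-KO-labelled libraries and control for the 26 compared genes under deposited, upper-quartile and median-ratio scaling, with no recovery (left) and after 7 days (right); dotted lines mark 2-fold. The hepatocyte-made genes lie below the all-gene median (bars) under all 3 scalings at 7 days, and the 4 genes made by other cells lie above it.

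Beyond the 33 genes, 42 further genes of the same pathways were listed, of which 32 were in the table and 24 were compared. At both times 7 of the 24 were at least 2-fold higher in the OGT-KO-labelled libraries and 2 were lower, beside the 19.2% and 3.74% of all genes given above. Of the 7, St14, Thbs1 and Plgrkt passed the filter only through the OGT-KO-labelled libraries, where they were high. The higher genes included Anxa2 and S100a10, which together form a cell-surface platform for plasminogen and Plat. Anxa2 stood at 404 and 332 CPM against 15.3 and 9.21 CPM, and S100a10 at 291 and 244 CPM against 88.9 and 75.7 CPM. Plgrkt, a plasminogen receptor, read 17.6 and 17.2 CPM against 5.88 and 5.16 CPM. St14, a membrane protease of epithelium, read 38.8 and 43.3 CPM against 0.847 and 1.20 CPM. Thbs1, a matrix protein also stored in platelets, read 74.2 and 39.0 CPM against 3.53 and 1.35 CPM. Serpine2, an inhibitor of thrombin and of plasminogen activators, read 71.2 and 53.7 CPM against 22.3 and 14.0 CPM, and Serpinb6a 67.1 and 70.1 CPM against 27.7 and 25.2 CPM. On the median-ratio scale 3 of the 24 stayed past 2-fold on the higher side at both times, against 9.35% of all genes, and 8 were lower, against 10.4%. The genes lower at both times were hepatocyte products: Apoh, a phospholipid-binding plasma protein, stood at 555 and 559 CPM against 1493 and 1625 CPM, and Hgfac, a protease related to factor XII, at 102 and 97.3 CPM against 214 and 246 CPM.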

How the data were processed

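The deposited table holds CPM made by the authors, 1 column for each of 4 pooled mouse liver libraries. The submitters' processing notes name STAR, DESeq2 and the build GRCm39, with no role or version; the annotation, strand setting and handling of shared reads were not given in the sources used here. Each column summed to 1000000. All values (100%) were whole multiples of 1 read within 0.01 reads, so read counts were recovered. CPM per gene is not divided by length, so levels were not compared between genes.

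Groups came from the labels. Differences were taken on log2(CPM + 1), which understates changes of low genes, in genes averaging 10 CPM or more, and called at 2-fold. Folds with intervals are ratios of CPM, with exact Poisson or conditional binomial intervals at 95%. With 1 library per group no p-value is given for a difference between 2 libraries. The binomial and edgeR alternatives below use a threshold on adjusted p, and neither measures the spread between mice. Alternatives were pseudocounts of 0.1 and 10, no filter and a mean of at least 50 CPM, median-ratio and upper-quartile scaling, thresholds of 1.5-fold and 4-fold, an exact binomial test on reads, ratios to summed cell markers (chosen after seeing the data), and edgeR 4.0.16 in R 4.3.3. The recovered reads were fitted there with label and recovery as terms, which called 2243 genes higher and 2158 lower. In data simulated with 200 genes changed 4-fold at both times, the 2-fold rule found all 200 and called 0 of 8764 unchanged genes, and edgeR found 182 and called 9. As many genes were raised as lowered there, and the spread between libraries was assumed, since 1 library per group cannot show it. The 4-fold change lay past the 2-fold threshold by design. These counts therefore check the steps and give no error rate for the real libraries. Other steps used Python 3.11, numpy 2.4.6, pandas 2.3.3 and scipy 1.17.1.

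The genes, marker lists, further pathway genes and letter strings were chosen with earlier results of these data known. The further genes named are those called in the same direction at both times, and nearest patterns were computed for Fga and Vwf.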

Additional observations from a re-analysis of the deposited data

Results flagged for a closer look

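With no replicates, no test of a difference between effects was possible, and the following differences were not tested. They are listed because a gene moved in opposite directions, each beyond its counting interval, on the deposited scale. Between the labels, the log2 difference with no recovery and then after 7 days was -0.13 and 0.13 for Pros1, 0.13 and -0.61 for Kng1, and 0.68 and -0.17 for Kng2. The change with recovery in the control-labelled libraries and then in those labelled OGT-KO was 0.73 and -0.0206 for Fgb, -0.15 and 1.76 for Klkb1, -0.0872 and 0.53 for Serpind1, 0.46 and -0.29 for Kng1, and 0.51 and -0.34 for Kng2. It was 0.0676 and -0.10 for Cpb2 and 0.0306 and -0.0352 for F2. After median-ratio scaling the directions no longer opposed for 5 of these: the values were -0.84 and -0.55 for Pros1, -0.59 and -1.30 for Kng1, and -0.04 and -0.85 for Kng2 between the labels, and 0.77 and 0.05 for Fgb and 0.07 and 0.04 for F2 with recovery. Under upper-quartile scaling Kng2 still opposed between the labels (0.20 and -0.65), while Pros1 and Kng1 did not.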

How the results depend on the processing

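No paired analysis was possible because each group is 1 pooled library, and no library could be left out. Of 94 counts of called genes recomputed, 62 stayed within 1.5 times the reported count. The 62 include the counts with the exact binomial test, which left every count unchanged, also over all genes, and so was no check. Of 208 log2 differences of single genes recomputed, called and uncalled together, 90 stayed within counting error of the reported value. Among the called ones 0 changed sign, while uncalled values of Kng1, Kng2 and Pros1 did. The counts that moved, out of the 26 genes unless stated, were these. With a pseudocount of 10, recovery in the OGT-KO-labelled libraries gave 1 higher and 0 lower. With no filter (33 genes), 10 were higher with no recovery, 9 after 7 days and 9 at both times. With a mean of at least 50 CPM, 1 was higher at each time and at both, and recovery in the OGT-KO-labelled libraries gave 1 higher and 0 lower. Median-ratio scaling gave 17 lower with no recovery, 2 higher and 19 lower after 7 days, and 2 higher and 17 lower at both times. Upper-quartile scaling gave 15 lower with no recovery and 14 at both times. A 4-fold threshold gave 2 higher and 1 lower at each time and at both, and 0 with recovery in the OGT-KO-labelled libraries. A 1.5-fold threshold gave 15 lower with no recovery and 13 at both times, 3 higher and 1 lower with recovery in the control-labelled libraries, and 2 lower with recovery in those labelled OGT-KO. The edgeR fit gave 21 lower with TMM scaling and 20 with RLE. The cause of each move was not tested beyond how the setting is built. Depth limits F13a1, Plat, Plaur, Procr and Plau most, since the control-labelled libraries held 26 reads or fewer of each.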

Other observations

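F2rl1, a receptor of the same family as F2r, was under the filter and read 15.1 and 15.2 CPM in the OGT-KO-labelled libraries (no recovery, then 7 days) against 0.329 and 0.150 CPM in those labelled control. Of 9 platelet genes listed, 3 were in the table and all were under the filter; Pf4, a platelet granule chemokine, read 4.20 and 3.19 CPM against 0.235 and 0.250 CPM.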
